A study of Mus musculus with 18 samples.

Results

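Adult globin, haem synthesis and membrane transcripts of erythrocytes were followed in the thyroid samples of mice given 211At, an alpha particle emitter that the thyroid takes up. The members were the listed genes Hbb-b1, Hbb-b2, Hba-a1, Alas2 and Slc4a1, found through the gene symbols of the platform's probe table, and each was measured by 1 probe. They gave 5 probes of 25697 on the array. The symbols alone found 4 of them. The fifth, with the RefSeq accession of the transcript that older records call Hbb-b1, is listed in the probe table as Hbb-bt and in the study's own annotation as Hbb-b1, and it is called Hbb-b1 here. No member was left out, and all 5 were detected on the 3 arrays of at least 1 group.

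As background, haemoglobin of adult mice is made of alpha chains, which Hba-a1 and Hba-a2 encode, and of beta chains, which the adult Hbb genes encode. Alas2 encodes the erythroid form of 5-aminolevulinate synthase, the first and rate-limiting enzyme of haem synthesis, and Slc4a1 encodes band 3, the anion exchanger that anchors the membrane skeleton of the erythrocyte. These transcripts are made in erythroid precursors of the marrow and spleen and are carried in the blood by reticulocytes.

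All mice were 6 months old and female, of the BALB/c nude strain, which lacks a normal thymus. The irradiated groups received 211At and their thyroids an absorbed dose of 0.05, 0.5, 1.4, 11.2 or 32.4 Gy, whereas the non-irradiated controls (0 Gy) were treated with an empty syringe. All animals were killed at 24 h by cardiac puncture, and the thyroids of each group were pooled into a single RNA sample that was hybridised to 3 MouseRef-8 arrays. In every value, n was therefore 3 arrays of the same RNA, the errors and p-values measure the spread between arrays alone, and the spread between mice was not measured. Each array detected 10257 to 11328 probes (detection p-value under 0.01), with median non-normalized signals of 86.3 to 115.3.

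The labelled tissue was checked against markers of thyroid follicular cells. Of 12 listed genes, 10 had a probe and 1 of these, Tshr, was detected on the 3 arrays of a group. The probe of Tg, the thyroglobulin gene, was detected on 0 of 18 arrays with a highest signal of 106.0, and those of Slc5a5, Pax8, Nkx2-1, Foxe1, Duox2 and Dio1 were also detected on 0 arrays. The summed signal of the 10 genes was 931 to 1006 on all arrays. By contrast, all 8 listed genes of brown fat were detected on all 18 arrays.

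The probe sequences are shown because they set what each signal can hold. The probes of Hbb-b2 and Hbb-b1, on chromosome 7, are 50 bases long and match each other when shifted by 1 base. Over the 49 bases that they share they have 1 mismatch, which is G15T with the Hbb-b2 base first and the position counted from the 5′ end of the 30 bases printed here. The mismatch is in capitals.
Hbb-b2: agaaaaactgtcaaGtgtggggaaatgatg
Hbb-b1: agaaaaactgtcaaTtgtggggaaatgatg
With 1 base between them, RNA of the one gene may bind the probe of the other, so that the pair are not independent measurements. The counts over members below hold both probes. The probes of Hba-a1 (chromosome 11, from base 175 of the transcript) and Alas2 (chromosome X, from base 1733) are printed whole, with no base marked.
Hba-a1: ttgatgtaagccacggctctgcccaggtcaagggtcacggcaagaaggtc
Alas2: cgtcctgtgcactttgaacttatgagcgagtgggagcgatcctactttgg
Hba-a2, whose product is nearly that of Hba-a1, has no probe of its own symbol in the probe table, and RNA of both genes may bind the Hba-a1 probe.

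The 250 bases upstream of the start were read from RefSeq (GRCm38.p6, strain C57BL/6J) for the members listed there. They are shown as a description of these promoters, and no link between their letters and the levels was tested. Letters searched on both strands are in capitals: AGATAA and TGATAA, the form bound by GATA factors, CACCC, the form bound by Klf1, CCAAT, and TATAA.
Hba-a1 (chr11:32283422-32283671, plus strand): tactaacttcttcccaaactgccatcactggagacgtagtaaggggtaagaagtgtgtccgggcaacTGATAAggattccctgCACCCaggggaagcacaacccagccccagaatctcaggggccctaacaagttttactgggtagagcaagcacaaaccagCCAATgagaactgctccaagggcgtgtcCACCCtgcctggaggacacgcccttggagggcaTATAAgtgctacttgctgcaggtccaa
Hbb-bt (chr7:103813924-103814173, minus strand): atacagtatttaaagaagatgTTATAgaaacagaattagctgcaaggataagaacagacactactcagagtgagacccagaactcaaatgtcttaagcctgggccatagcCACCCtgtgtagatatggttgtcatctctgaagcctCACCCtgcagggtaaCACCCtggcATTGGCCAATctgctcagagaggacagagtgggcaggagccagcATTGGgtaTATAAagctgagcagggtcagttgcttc
Alas2 (chrX:150547167-150547416, plus strand): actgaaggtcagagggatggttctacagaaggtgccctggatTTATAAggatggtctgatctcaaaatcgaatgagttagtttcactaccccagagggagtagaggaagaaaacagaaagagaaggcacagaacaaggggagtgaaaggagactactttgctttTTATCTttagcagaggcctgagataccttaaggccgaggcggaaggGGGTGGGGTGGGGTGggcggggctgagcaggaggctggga
Hbb-bt stands here for the adult beta chain of the reference strain, and the beta globin genes of BALB/c mice are of another haplotype. CACCC was in all 3 windows, CCAAT in those of Hba-a1 and Hbb-bt, where a forward and a reverse copy in Hbb-bt adjoin each other, AGATAA in that of Alas2 on the opposite strand, and TGATAA in that of Hba-a1. The forward TATAA began 27 bases before the start of Hba-a1 and 28 before that of Hbb-bt, while in Alas2 it lay 207 bases away. Of all 32851 windows of this length in the table, 52% held CACCC, 33.8% CCAAT, 22.8% TATAA, 9.99% AGATAA and 7.94% TGATAA. The full promoter entries of Hba-a1 and Hba-a2 in that table, which reach beyond the start into the transcript, were identical at 297 of the 297 bases that could be laid over each other with a shift of 3 bases.

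The deposited normalized values fall into 2 sets. The 6 arrays of 0.05 and 0.5 Gy share one distribution and the 12 arrays of 0, 1.4, 11.2 and 32.4 Gy share another, so that a ratio of the lowest doses to the controls also holds the difference between the sets. The median log2 ratio of all probes was -0.19 at 0.05 Gy and -0.19 at 0.5 Gy in the deposited values, and -0.01 and -0.01 after joint quantile normalization of the 18 arrays from their non-normalized signals. Both forms are given for each member. The normalization set and the absorbed dose cannot be told apart for these ratios, for the step from 0.5 to 1.4 Gy, or for any other comparison across the sets. Joint normalization gives the 18 arrays a single distribution, but it cannot take out a difference of single probes between the 2 sets. Whether the sets also differed in handling is not given in the sources used here, and its part in the joint ratios was not tested.

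Hba-a1, the alpha chain, was lower at the lowest absorbed doses than in every other group. Its jointly normalized intensities were 28635, 32623 and 28635 on the control arrays, 9496, 9413 and 8496 at 0.05 Gy, and 5483, 5137 and 5137 at 0.5 Gy. At 1.4 Gy they were 32623, 31102 and 32623, at 11.2 Gy 24526, 23478 and 23478, and at 32.4 Gy 31810, 30450.0 and 30450.0. The 6 arrays of 0.05 and 0.5 Gy thus lay apart from the 12 others, and those of 11.2 Gy lay below the controls, while 1.4 and 32.4 Gy overlapped the controls. Against 0 Gy, Hba-a1 fell to 30.5% at 0.05 Gy (log2 ratio -1.71 ± 0.06, SE; limma adjusted p = 9.13e-19) and to 17.6% at 0.5 Gy (-2.51 ± 0.06; adjusted p = 6.56e-23). In the deposited values the log2 ratios were -1.85 and -2.62. Before any normalization the signal was 28526 to 35411 in the controls, 6076 to 8871 at 0.05 Gy and 5298 to 5865 at 0.5 Gy, so that the groups did not overlap there either. At this brightness quantile normalization gives a probe the value of its rank, and several arrays therefore hold the same number. On the arrays of 0, 1.4 and 32.4 Gy the Hba-a1 probe ranked 3 to 9 from the brightest. Whether saturation hid differences among these groups was not tested.

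**Figure D1:**
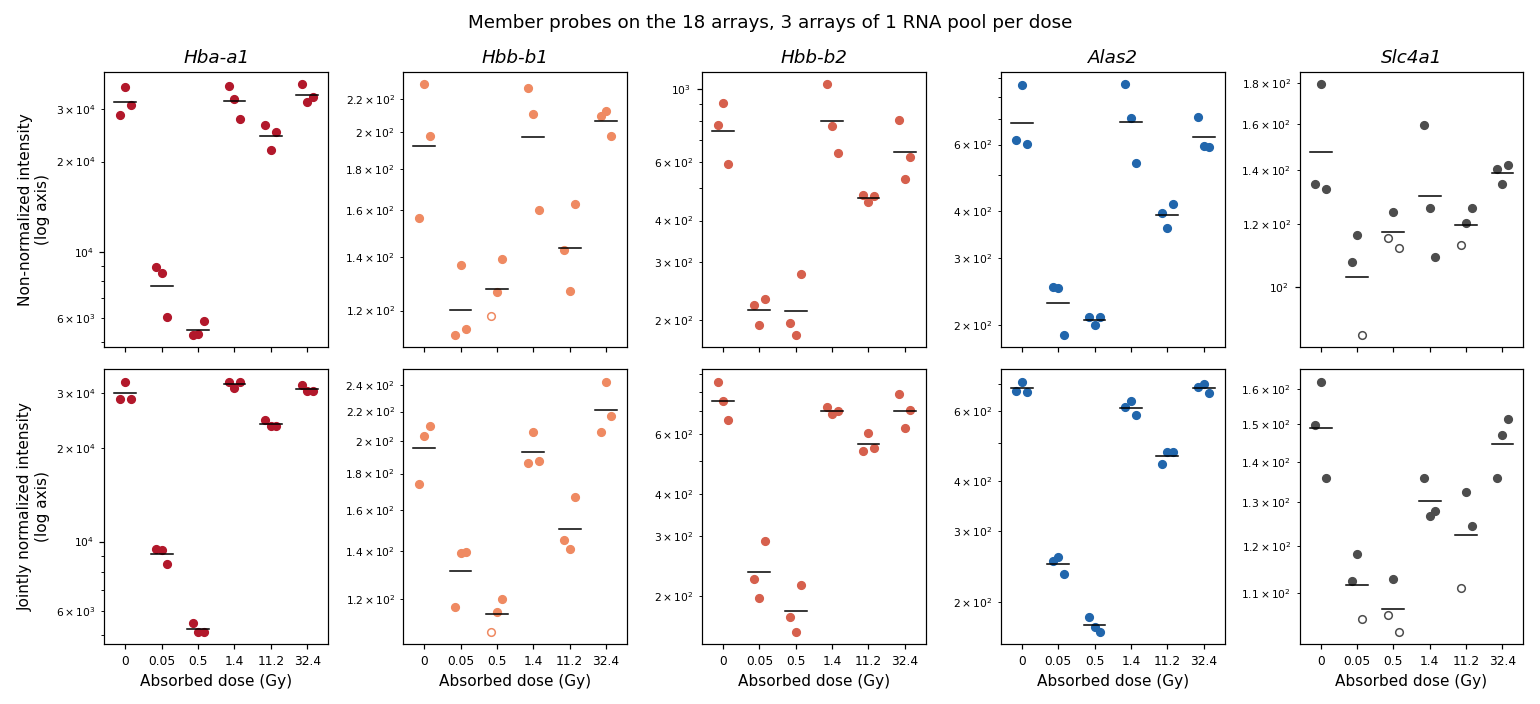
Signal of the 5 member probes on each of the 18 arrays by absorbed dose in Gy, non-normalized (top) and after joint normalization (bottom), on log axes that differ between panels. Points are arrays (open where the detection p-value was 0.01 or more) and bars are geometric means; for Hba-a1, Hbb-b2 and Alas2 the 6 points of 0.05 and 0.5 Gy lie below all 12 others in both rows.

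Hbb-b2, the minor adult beta chain, was also lowest at 0.5 Gy, then at 0.05 Gy and then at 11.2 Gy. The jointly normalized intensities were 857, 752 and 658 in the controls, 224, 198 and 291 at 0.05 Gy, and 173, 157 and 215 at 0.5 Gy. They were 721, 687 and 703 at 1.4 Gy, 533, 606 and 544 at 11.2 Gy, and 789, 627 and 704 at 32.4 Gy. Every array of the lowest doses was below every array of the other groups, and 0.05 and 0.5 Gy overlapped each other. Hbb-b2 fell 3.20-fold at 0.05 Gy (log2 ratio -1.68 ± 0.11; adjusted p = 1.86e-12) and 4.17-fold at 0.5 Gy (-2.06 ± 0.11; adjusted p = 1.07e-14). The deposited values gave 4.81-fold and 6.29-fold.

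The probe called Hbb-b1 here, listed as Hbb-bt in the probe table, had a much weaker signal, close to the background of the arrays. In the controls its joint geometric mean was 195, below the 751 of Hbb-b2. Whether it measures the major adult beta chain of BALB/c mice was not tested, and Hbb-b1 is used as a label of the probe. Its jointly normalized intensities were 174, 203 and 210.1 in the controls, 117, 139 and 139.6 at 0.05 Gy, and 108, 115 and 119.9 at 0.5 Gy, where 1 of 3 arrays did not pass detection. They were 186, 206 and 187 at 1.4 Gy, 145, 141 and 167 at 11.2 Gy, and 206, 242 and 217 at 32.4 Gy. Both lowest doses lay below the controls with no overlap, by less than for Hbb-b2. The fall was 1.49-fold at 0.05 Gy (log2 ratio -0.57 ± 0.08; adjusted p = 3.52e-06), under the 1.5-fold that a call requires, and 1.71-fold at 0.5 Gy (-0.77 ± 0.08; adjusted p = 1.12e-08), which was called. After background correction and normalization of all arrays with neqc, a limma function that models the background of each array, the falls were 2.24-fold and 3.29-fold.

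Alas2, the haem synthesis enzyme of erythroid cells, was also lowest at 0.5 and 0.05 Gy, with joint ratios between those of Hba-a1 and Hbb-b1. Its jointly normalized intensities were 674, 711 and 669.8 in the controls, 253, 259 and 235 at 0.05 Gy, and 184, 173 and 168 at 0.5 Gy. At 1.4 Gy they were 614, 635 and 587, at 11.2 Gy 442, 473 and 473, and at 32.4 Gy 689, 700.4 and 667. The arrays of 0.05 Gy lay above those of 0.5 Gy with no overlap, and the arrays of 11.2 Gy lay between the lowest doses and the controls. Alas2 fell to 36.4% of the controls at 0.05 Gy (log2 ratio -1.46 ± 0.06; adjusted p = 1.29e-17) and to 25.5% at 0.5 Gy (-1.97 ± 0.06; adjusted p = 7.2e-21). The deposited log2 ratios were -2.06 and -2.57, and the non-normalized signals were 602 to 861 in the controls, 189 to 253 at 0.05 Gy and 200.2 to 210.2 at 0.5 Gy.

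Slc4a1, the anion exchanger, was the member nearest to the background. The jointly normalized intensities were 149.9, 162 and 136 in the controls, 112, 118 and 105 at 0.05 Gy (detected on 2 arrays), 106, 113 and 102 at 0.5 Gy (detected on 1 array), 136, 127 and 128 at 1.4 Gy, 111, 133 and 124 at 11.2 Gy (detected on 2 arrays), and 136, 147 and 152 at 32.4 Gy. The arrays of the lowest doses were again below those of the controls, over a narrow range. The fall was 1.33-fold at 0.05 Gy (log2 ratio -0.41 ± 0.07; adjusted p = 5.78e-05) and 1.39-fold at 0.5 Gy (-0.48 ± 0.07; adjusted p = 5.01e-06), and neither reached 1.5-fold. In the deposited values Slc4a1 fell 1.78-fold and 1.87-fold and was called at both doses, and with neqc it fell 2.12-fold and 2.44-fold.

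Counted over the members, a call required an adjusted p of less than 0.01 together with a change of 1.5-fold or more, which are the thresholds of the study. Hbb-b1 and Hbb-b2 are each counted, here and below, though their probes are not independent. At 0.05 Gy, 3 of 5 were called lower after joint normalization, where 2.18% of all probes were, and 5 of 5 in the deposited values, where 15.7% were. With neqc, 5 of 5 were called lower against 5.11% of all probes. At 0.5 Gy the counts were 4 of 5 against 3.9% jointly, 5 of 5 against 15.3% as deposited, and 5 of 5 against 7.19% with neqc. The members called jointly at 0.05 Gy were Hba-a1, Hbb-b2 and Alas2, and at 0.5 Gy Hbb-b1 was added to these. All 5 members passed the adjusted p alone at both doses in both forms. For pairs of groups, the share of all probes that passed an adjusted or unadjusted p alone was not counted. Counts by such p-values, here and below, therefore have no background to be read against. The median log2 ratio of the 5 members was -1.46 at 0.05 Gy and -1.97 at 0.5 Gy jointly, and -1.85 and -2.57 as deposited. On all 3 arrays of either dose, 5 of 5 members were below all control arrays, which held jointly for 16.3% of all probes at 0.05 Gy and 17.8% at 0.5 Gy, and as deposited for 61.3% and 62.8%. In bulk RNA, fewer cells of a type and less RNA per cell cannot be told apart.

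**Figure D2:**
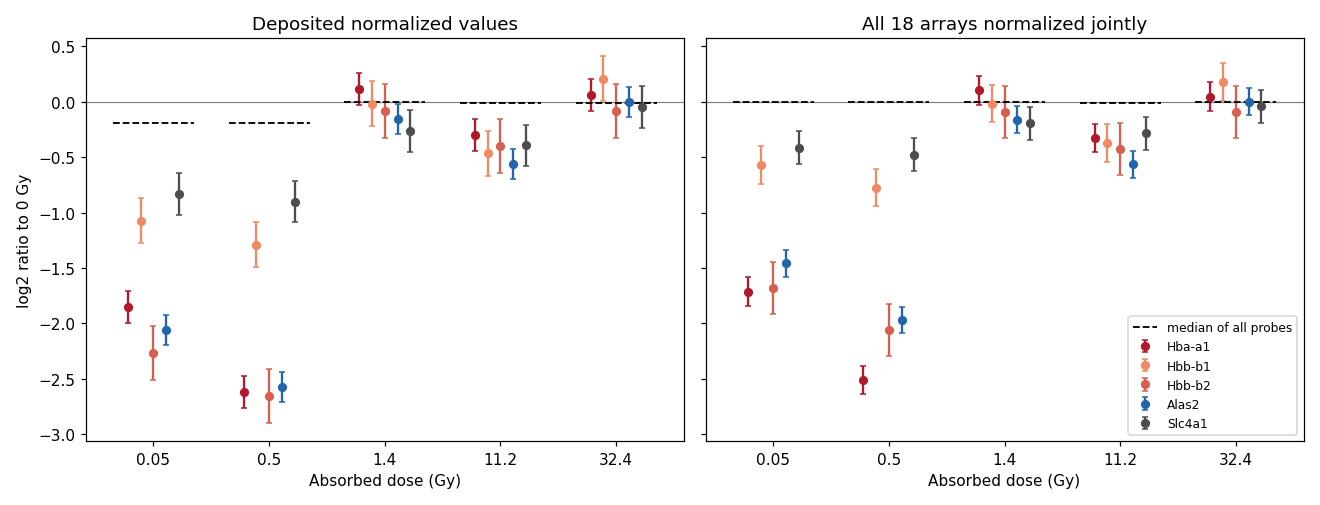
Log2 ratio of each member to 0 Gy at the 5 absorbed doses (Gy), from the deposited values (left) and after joint normalization (right). Points are ratios with 95% confidence intervals from limma (3 arrays per group) and dashed lines are the median of all probes, which was -0.19 at 0.05 and 0.5 Gy on the left; the members were lowest at 0.5 Gy and near 0 at 1.4 and 32.4 Gy.

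At 1.4 and 32.4 Gy the members were at or close to the level of the non-irradiated controls. At 1.4 Gy, limma called 0 of 5 lower in either form, and none higher, against 1.2% of all probes called lower jointly and 1.48% as deposited. Unadjusted p-values were under 0.05 for 2 of 5 (Alas2 and Slc4a1), and neqc and scaling to the 75th percentile also called 0. The joint log2 ratios ran from -0.19 (Slc4a1) to 0.10 (Hba-a1). At 32.4 Gy, limma again called 0 of 5, against 0.786% called lower jointly and 0.895% as deposited, with 1 unadjusted p-value under 0.05 (Hbb-b1) and 0 calls with neqc and with the 75th percentile. The joint log2 ratios there ran from -0.09 to 0.18, and for Alas2 the ratio was 0.00 with a 95% confidence interval of -0.12 to 0.12.

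At 11.2 Gy all 5 members were lower by a smaller factor. The joint log2 ratios were -0.33 ± 0.06 for Hba-a1, -0.37 ± 0.08 for Hbb-b1, -0.42 ± 0.11 for Hbb-b2, -0.57 ± 0.06 for Alas2 and -0.28 ± 0.07 for Slc4a1. Limma called 0 of 5 lower at 1.5-fold, against 0.957% of all probes called lower jointly and 1.07% as deposited, while the adjusted p alone passed for 5 of 5 jointly (2.11e-08 for Alas2 to 0.00842 for Hbb-b2) and for 4 of 5 as deposited. All 5 unadjusted p-values were under 0.05, and the shares of all probes that passed these p-values were not counted. Neqc called Alas2, and scaling to the 75th percentile called Alas2 and Hbb-b2. In either direction, neqc called 1588 of the 25697 probes and 75th percentile scaling 909. On all arrays of 11.2 Gy, 5 of 5 members lay below all controls, as did 15.4% of all probes jointly and 15.4% as deposited.

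Seen against the whole array, the members stood at different depths of the lower tail. Among the 11314 probes detected on the 3 arrays of any group, 0.186% had a lower joint ratio than Hba-a1 at 0.5 Gy, 0.301% than Hbb-b2, 0.371% than Alas2, 5.29% than Hbb-b1 and 11.7% than Slc4a1. At 0.05 Gy the shares were 0.256%, 0.265%, 0.336%, 5.21% and 10%. The low signals of Hbb-b1 and Slc4a1, which was detected on 1 of 3 arrays at 0.5 Gy, limit how far their ratios could fall, so that their place says little about the size of the change.

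**Figure D3:**
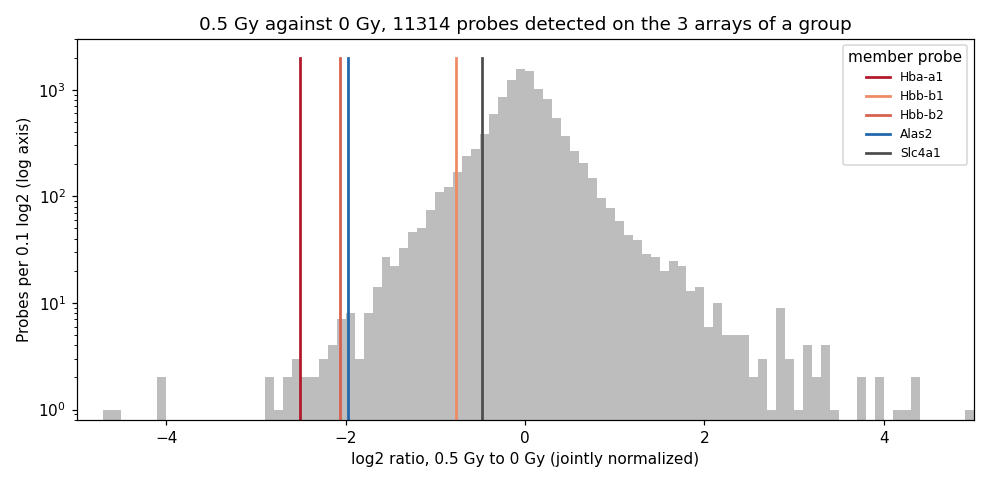
Distribution of the log2 ratio of 0.5 Gy to 0 Gy after joint normalization over the 11314 probes detected on the 3 arrays of a group (grey bars, number of probes per 0.1 log2 units, log axis, from -5 to 5), with the ratio of each member as a line. Hba-a1, Hbb-b2 and Alas2 stand at -2.51, -2.06 and -1.97 in the lower tail, and Hbb-b1 and Slc4a1 at -0.77 and -0.48 nearer to the centre.

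The levels did not follow the order of the absorbed doses. For all 5 members the lowest jointly normalized mean was at 0.5 Gy, the next at 0.05 Gy and the next at 11.2 Gy. The groups of 0, 1.4 and 32.4 Gy were above these in an order that differed between members. For Slc4a1 the arrays of neighbouring groups overlapped at every step. In non-normalized signals the geometric mean was lower at 0.05 than at 0.5 Gy for Hbb-b1 (120.4 and 127.7) and Slc4a1 (102.9 and 117.1). The limma F test among the 5 doses passed an adjusted p of 0.01 for 5 of 5 members in both forms, as it did for 25.3% of all probes jointly and 50.9% as deposited. The joint adjusted p was 4.31e-24 for Hba-a1 and 8.84e-05 for Slc4a1, the lowest and the highest of the 5. Both the order of levels and this F test cross the normalization sets.

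Between neighbouring doses, 1 of 5 members, Hba-a1, was called lower at 0.5 than at 0.05 Gy in both forms, against 0.568% of all probes jointly and 0.549% as deposited (joint log2 ratio -0.80 ± 0.06; adjusted p = 2e-10). Alas2 differed by 1.42-fold (adjusted p = 3.73e-07), while Hbb-b2 (adjusted p = 0.0307), Hbb-b1 (0.157) and Slc4a1 (0.803) did not pass 0.01. These arrays belong to a single set in the deposited values, in which the log2 ratios were -0.77 for Hba-a1 and -0.51 for Alas2. From 0.5 to 1.4 Gy, 4 of 5 members were called higher jointly against 5.04% of all probes, and 5 of 5 as deposited against 17.1%. The joint rise was 6.12-fold for Hba-a1, 3.91-fold for Hbb-b2, 3.50-fold for Alas2 and 1.69-fold for Hbb-b1, and Slc4a1 differed by 1.22-fold (adjusted p = 0.00284).

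From 1.4 to 11.2 Gy, limma called 0 of 5 lower, against 2.32% of all probes jointly and 2.82% as deposited. The adjusted p alone passed for Hba-a1 (joint log2 ratio -0.43), Alas2 (-0.40) and Hbb-b1 (-0.36), 4 unadjusted p-values were under 0.05, and neqc called 0 and 75th percentile scaling 2 (Alas2 and Hbb-b2). From 11.2 to 32.4 Gy, Hbb-b1 was called higher as deposited (1.59-fold), where 0.564% of all probes were, and 0 of 5 jointly (1.47-fold for Hbb-b1, adjusted p = 3.07e-05), where 0.486% were. Over that last step 5 unadjusted p-values were under 0.05, and neqc called 2 (Alas2 and Hbb-b1) and 75th percentile scaling 1 (Alas2). Both steps lie within the set of 12 arrays that were normalized together by the authors. For neighbouring doses, here and below, the shares of all probes called by neqc and by 75th percentile scaling were not counted. From 0.05 to 11.2 Gy, which are neighbours in the order of levels, Hba-a1 differed 2.61-fold, Hbb-b2 2.39-fold and Alas2 1.86-fold (joint adjusted p = 1.42e-15, 4.52e-09 and 7.09e-12), whereas Hbb-b1 (adjusted p = 0.175) and Slc4a1 (0.367) did not pass. That comparison crosses the normalization sets, so that set and dose cannot be told apart in it.

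Of the other globins, those that could be measured were not called lower. Of 9 listed genes 7 had a probe, and the embryonic chains Hba-x, Hbb-bh1 and Hbb-y, together with Hbq1 and neuroglobin (Ngb), were detected on 0 or 1 of 18 arrays with signals no higher than 124.9. The genes detected throughout were Mb, the myoglobin of muscle, and Cygb, the cytoglobin of fibroblast-like cells. Mb was called higher at 0.05, 0.5, 11.2 and 32.4 Gy, with joint log2 ratios of 2.06, 1.34, 1.11 and 3.49, and the ratio was 0.08 at 1.4 Gy. Its weaker probe was called at 0.05 Gy (1.17) and 32.4 Gy (2.73). Of all probes, 2.62%, 3.69%, 1.23%, 1.84% and 1.31% were called higher jointly, from the lowest to the highest dose. Cygb was called at none of the 5 doses, with joint log2 ratios of 0.18 to 0.50. The 5 genes at background in the controls had no level from which to fall.

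The other enzymes of haem synthesis, which all cells use, had joint log2 ratios of -0.75 to 0.12 at 0.5 Gy, where Alas2 had -1.97. Of 8 listed genes 7 had a probe, and 6 of them were detected on all 18 arrays. In the deposited values 5 of 7 were called lower at 0.05 Gy and 5 of 7 at 0.5 Gy, whereas jointly 0 of 7 and 1 of 7 were. At 0.05 Gy limma gave unadjusted p-values under 0.05 for 4 of 7, all lower. The median joint log2 ratio was -0.24 at 0.05 Gy and -0.38 at 0.5 Gy, beside -0.01 over all probes, and -0.80 and -0.84 as deposited, beside -0.19. The gene called was Alas1, the housekeeping form of the enzyme that Alas2 encodes, with a joint log2 ratio of -0.75 at 0.5 Gy and -0.33 at 0.05 Gy. At 0.5 Gy the ratios were -0.36 for Alad, -0.54 for Uros, -0.45 for Urod, -0.38 for Fech, the last enzyme of the pathway, and -0.01 for Ppox, none of which was called jointly. At 1.4, 11.2 and 32.4 Gy, 0 of 7 were called in either form, with 1, 6 and 5 unadjusted p-values under 0.05 jointly.

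**Figure D4:**
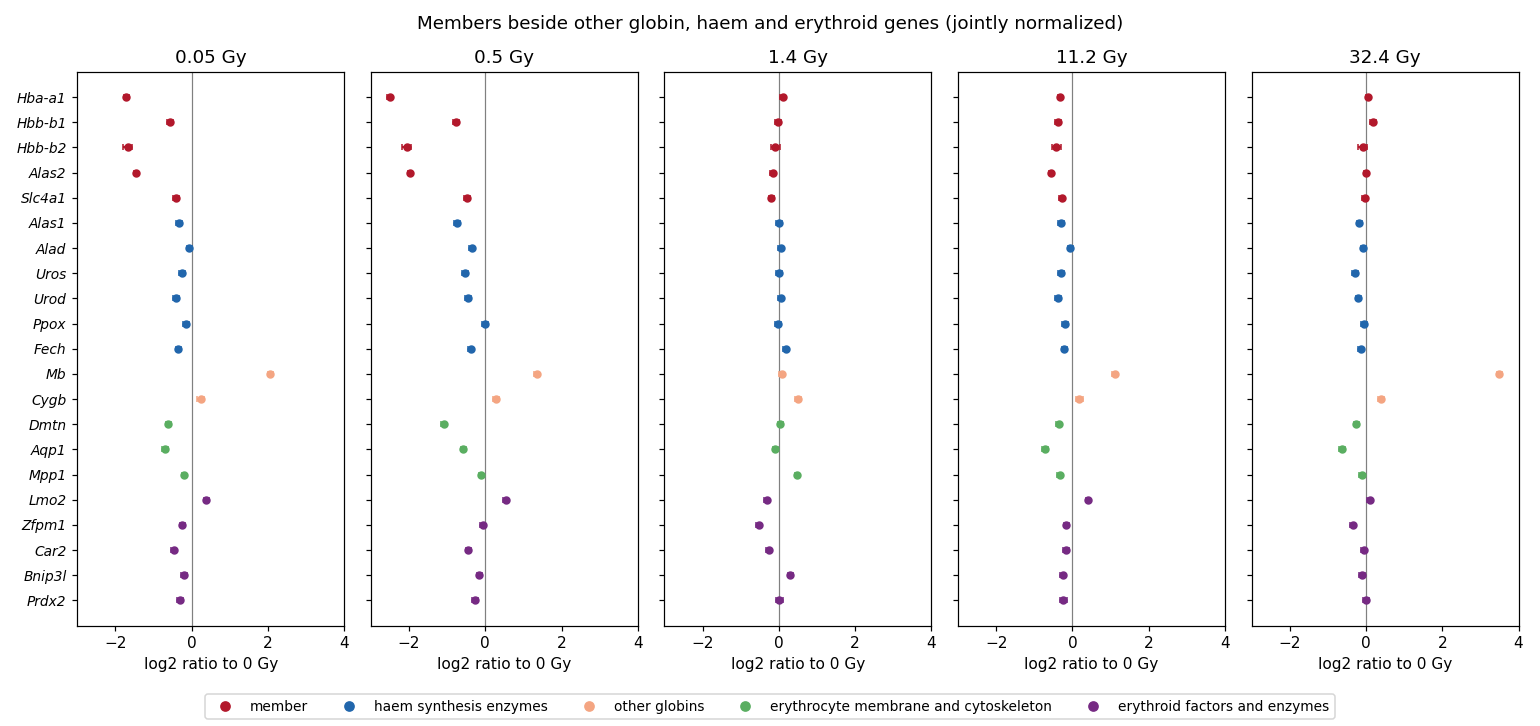
Joint log2 ratio to 0 Gy (horizontal axis) of the 5 members and of the other globin, haem synthesis, erythrocyte membrane and erythroid genes detected on all 18 arrays, one panel per absorbed dose. Points are ratios and bars are limma standard errors (3 arrays per group); in the panels of the lowest doses Hba-a1, Hbb-b2 and Alas2 lie farthest to the left, and Mb farthest to the right.

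Of the proteins of the erythrocyte membrane and its skeleton, 14 of 18 listed genes had a probe and 4 were detected on the 3 arrays of a group. Most of those that mark erythroid cells, among them Epb42, Rhag, Kel and Ermap, were detected on 0 or 1 arrays. Jointly, 2 genes were called lower at 0.05 Gy, Dmtn (dematin, listed on the array as Epb4.9, log2 ratio -0.62) and Aqp1 (the water channel aquaporin-1, -0.70), and 1 at 0.5 Gy, Dmtn (-1.08). Aqp1, which endothelium also expresses, was called lower at 11.2 Gy (-0.72) and 32.4 Gy (-0.63) as well. Sptb (listed as Spnb1), the beta spectrin of erythrocytes and of muscle, was called higher at 0.05 Gy (0.63) and 0.5 Gy (0.66), though not in the deposited values. Mpp1, a scaffold protein of the membrane, was not called, with joint ratios of -0.34 to 0.47. The median of the 14 genes was 0.05 at 0.05 Gy and 0.03 at 0.5 Gy, and 3 were called lower at each of these doses as deposited.

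Of the erythroid factors and enzymes, 13 of 16 listed genes had a probe and 6 were detected on the 3 arrays of a group. The probe of Gata1, the central erythroid transcription factor, was detected on 0 arrays, that of Klf1 on 3 and that of Tal1 on 1. Jointly 0 of 13 were called in any direction at any dose, with 5, 6, 5, 6 and 2 unadjusted p-values under 0.05 from the lowest to the highest dose. At the lowest doses, 0.05 Gy first, the joint log2 ratios were -0.48 and -0.44 for Car2 (carbonic anhydrase 2), -0.31 and -0.26 for Prdx2 (peroxiredoxin 2), -0.20 and -0.16 for Bnip3l (which clears mitochondria from reticulocytes), -0.25 and -0.07 for Zfpm1 (the Gata1 partner FOG-1), and 0.39 and 0.54 for Lmo2 (a scaffold of erythroid factor complexes). As deposited, 4 of 13 were called lower at each of these doses.

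Genes of haem and iron transport and breakdown were mixed. Of 24 listed genes 21 had a probe and 17 were detected on the 3 arrays of a group. Jointly 2 were called lower and 2 higher at 0.05 Gy, and 1 lower and 1 higher at 0.5 Gy. Blvra, a biliverdin reductase of haem breakdown, was called lower at both doses (log2 ratios -0.63 and -0.63), and Cd163, the scavenger receptor of macrophages for haemoglobin, at 0.05 Gy (-0.62). Trf, transferrin, was called higher at both (2.06 and 2.02), at 1.4 Gy (1.85) and at 32.4 Gy (1.13). Slc40a1, the iron exporter ferroportin, was called higher at 0.05 Gy (0.63) and 11.2 Gy (0.92). As deposited, 9 of 21 were called lower at 0.05 Gy and 8 at 0.5 Gy. Hp, haptoglobin, which binds free haemoglobin, was called lower at 11.2 Gy (-0.97) and 32.4 Gy (-0.76), and the other probes of Hp were called higher at 1.4 Gy (0.67 and 0.82), where this probe had -0.03. The median of the 21 genes was -0.08 at 0.05 Gy and -0.05 at 0.5 Gy.

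Markers of other blood cells were sparse. Of 7 platelet genes with a probe (9 listed), 2 were detected on the 3 arrays of a group, and Pf4, a chemokine of platelet granules, was called lower jointly at 0.5 Gy (log2 ratio -0.62; -0.19 at 0.05 Gy). The summed joint signal of the platelet genes was 954 to 1021 in the controls, 886 to 985 at 0.05 Gy and 808 to 849 at 0.5 Gy. Of 10 neutrophil genes, S100a8 (-1.28 and -1.61) and S100a9 (-0.78 and -0.96), subunits of calprotectin, were called lower at both doses, whereas Ltf and Lcn2, which glands also secrete, were called higher at 0.5 Gy (4.38 and 2.42). Calls were not confined to the lowest doses. Jointly, 2 of the 10 genes were called lower and 1 higher at 1.4 Gy, 2 lower at 11.2 Gy and 1 lower at 32.4 Gy. Ngp, Camp, Elane and Mpo, which mark neutrophil precursors, were detected on 0 to 3 arrays. The summed neutrophil signal was 1595 to 1708 in the controls, 1308 to 1375 at 0.05 Gy, 7501 to 7979 at 0.5 Gy, 1642 to 1688 at 1.4 Gy, 1197 to 1235 at 11.2 Gy and 1350 to 1389 at 32.4 Gy. Of 8 T and B cell genes with a probe, 0 were detected on the 3 arrays of any group. Whether these cells had a part in the levels of the members was not tested.

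Markers of other tissues moved at the same doses. Of 8 brown fat genes, 6 were called lower jointly at 0.05 Gy and 7 at 0.5 Gy, with median log2 ratios of -0.74 and -1.65, and 7 and 8 as deposited. At 0.5 Gy, Slc27a2, Cpt1b, Cox7a1, Cidea, Fabp3 and Elovl3 had log2 ratios of -2.06, -2.01, -1.96, -1.71, -1.59 and -1.32. The summed brown fat signal was 45528 to 47713 in the controls, 30848 to 31789.6 at 0.05 Gy, 15090.3 to 17088 at 0.5 Gy, 48549.9 to 52211 at 1.4 Gy, 38419 to 41571 at 11.2 Gy and 44942 to 47229 at 32.4 Gy. The order of the groups in this sum, lowest at 0.5 Gy, then 0.05 and then 11.2 Gy, was that of the joint means of the members. The sum is weighted to the brightest probes. Jointly, 1 of the 8 genes was called higher and 0 lower at 11.2 Gy and again at 32.4 Gy, where 1.84% and 1.31% of all probes were called higher. Of 11 endothelial genes, 2 were called lower jointly at 0.05 Gy and 8 at 0.5 Gy, with median log2 ratios of -0.49 and -0.70, and 2 (Flt1 and Egfl7) at 11.2 Gy. As deposited, 10 of 11 were called lower at 0.05 Gy, 10 at 0.5 Gy and 0 at 11.2 Gy. Tek, an angiopoietin receptor, was at -0.68 and -1.09 and Esam at -0.83 and -0.70, and Egfl7, Flt1, Eng and Cdh5 were at -0.97, -0.94, -0.88 and -0.74 at 0.5 Gy. The summed endothelial signal was 6339 to 7034 in the controls, 4515 to 4666 at 0.05 Gy, 3778 to 3906 at 0.5 Gy, 6505 to 6810.2 at 1.4 Gy, 4571 to 4883 at 11.2 Gy and 4977 to 5353 at 32.4 Gy. This sum was also lowest at 0.5 Gy, followed by 0.05 and 11.2 Gy, whose ranges overlapped. The summed signal of the haem synthesis enzymes was lowest at 0.5 Gy as well (7671 to 8137), so that the likeness was not particular to brown fat.

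Of 7 macrophage genes with a probe (10 listed), 1 was called lower jointly at each of the lowest doses, namely Lyz2 (lysozyme, -1.37 and -1.25), with median log2 ratios of -0.51 and -0.49, and Mrc1 was called higher at 1.4 Gy (0.75). As deposited, 7 of 7 were called lower at 0.05 Gy and 6 of 7 at 0.5 Gy. The summed macrophage signal was 3342 to 3457.5 in the controls, 1983 to 2071 at 0.05 Gy, 2038 to 2242 at 0.5 Gy, 4089.8 to 4238 at 1.4 Gy, 2877 to 3041 at 11.2 Gy and 3372 to 3466 at 32.4 Gy. Skeletal muscle moved the opposite way, with 10 of 11 genes called higher jointly at 0.05 Gy and 10 of 11 at 0.5 Gy, and 10 and 9 as deposited. Tnnc2, Mylpf, Pvalb, Tnni2, Acta1 and Tnnt3 were at 3.91, 3.60, 3.31, 3.59, 2.90 and 2.49 at 0.05 Gy. The summed muscle signal was 2645 to 2677 in the controls, 22268 to 23652 at 0.05 Gy, 15911 to 16944 at 0.5 Gy, 6481 to 6881 at 1.4 Gy, 13441 to 13746 at 11.2 Gy and 29866 to 30951 at 32.4 Gy. It was highest at 32.4 Gy, where no member was called. Of 11 secretory proteins of the salivary glands, 6 were called lower and 5 higher jointly at each of the lowest doses, and as deposited 6 and 5 as well. Their summed signal was 138364 to 144107 in the controls, 127381 to 131583 at 0.05 Gy, 129803 to 143462 at 0.5 Gy, 53763 to 55028 at 1.4 Gy, 141672 to 149302 at 11.2 Gy and 105534 to 109071 at 32.4 Gy. The part of the other tissues in the levels of the members was not tested.

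The probes with the pattern nearest to the members were sought among 7795 probes that have a gene symbol and were detected on all 18 arrays. The target was the mean of the 5 joint log2 ratios of Hba-a1, Hbb-b2 and Alas2, which was -1.62, -2.18, -0.05, -0.44 and -0.02 from the lowest to the highest dose. The nearest other genes lay at a root mean square difference of 0.27 to 0.40 from it. In rising distance they were Cox7a1, Slc27a2, Ahcyl1, Cpt1b, Clstn3, Coq6, Letmd1, Grpel1, Acot11 and Hoxa5. The likeness is over 5 ratios that share the same control arrays and is a description. All 10 were less reduced than the members' mean at 0.05 Gy, with ratios of -1.34 (Ahcyl1) to -0.83 (Acot11), and 1 of the 10, Letmd1, was more reduced at 0.5 Gy (-2.33). Of the 10, 3 (Cox7a1, Slc27a2 and Cpt1b) were also in the brown fat list, and 0 were in any list of erythroid, globin or haem genes. Few globin and erythroid genes could enter, since candidates had to be detected on all 18 arrays. On the 3 arrays of any group, 2 of 9 other globins, 4 of 18 membrane genes and 6 of 16 erythroid factors and enzymes were detected. For haem synthesis it was 6 of 8, for haem and iron transport 17 of 24, and for brown fat 8 of 8. The count of 0 therefore says little about globin and erythroid genes.

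**Figure D5:**
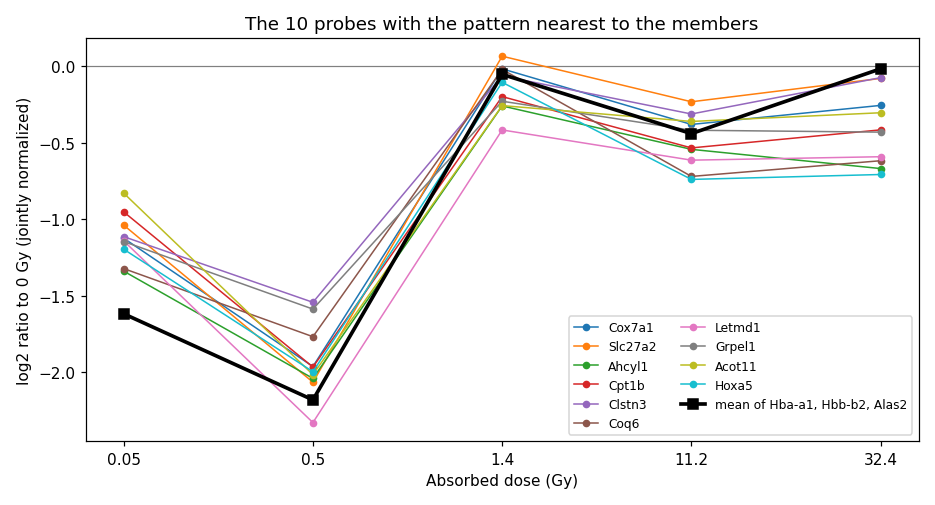
Joint log2 ratio to 0 Gy at the 5 absorbed doses (Gy) for the mean of Hba-a1, Hbb-b2 and Alas2 (black squares) and for the 10 probes with the smallest root mean square difference from it (coloured lines). The members' mean was -1.62 at 0.05 Gy and -2.18 at 0.5 Gy, and it was below all 10 other probes at 0.05 Gy.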

How the data were processed

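RNA of pooled thyroids was measured on 18 arrays, 3 per group. Per the paper's methods, the authors scanned the arrays and quantile-normalized the signals. The deposited values are fluorescence intensity on a linear scale, before and after that normalization, and the deposited detection p-value belongs to each probe and array. A background subtraction is not given in the sources used here. The deposited series table held the same normalized values (largest difference 0). Values of 815 control probes were not used.

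Groups were taken from the sample labels. Log2 intensities were fitted in limma 3.58.1 (R 4.3.3) with a mean per group over all 18 arrays. Two-sided moderated tests were adjusted by Benjamini-Hochberg over 25697 probes, and calls needed an adjusted p of less than 0.01 together with 1.5-fold or more. Joint values are the non-normalized signals, quantile-normalized over all arrays. Adjusted p-values beside genes are limma's, errors are its moderated standard errors, and the number of arrays limits the precision. The scripts were tested on simulated data. Figures were drawn with matplotlib 3.10.9. Each gene of a list was taken by its probe of highest mean signal.

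Named were all members, up to 6 genes per list called after joint normalization (largest change first), the globin, haem synthesis and erythroid genes detected on all 18 arrays, and the 10 nearest patterns. Gata1, Klf1, Tal1, Tg and other probes at background were named as checks after their values were seen. The members and lists were chosen with earlier results of these data known. Alternatives were neqc (offset 16), scaling to the 75th percentile, a detection filter, a fit of the compared groups alone, trended and robust moderation, replicate number as a block, and leaving out single arrays. The probe sequence of Slc4a1 was not used here.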

Additional observations from a re-analysis of the deposited data

How the results depend on the processing

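After joint normalization the members called at 0.05 Gy went from 5 to 3, with 75th percentile scaling to 3, and with a replicate block on the jointly normalized values to 3. Those called at 11.2 Gy went from 0 to 1 with neqc and to 2 with 75th percentile scaling. Between 0.05 and 0.5 Gy neqc called 2 members in place of 1, between 1.4 and 11.2 Gy 75th percentile scaling called 2 in place of 0, and between 11.2 and 32.4 Gy joint normalization called 0 and neqc 2 in place of 1. The cause of these changes was not tested. Over all probes, the calls at 0.05 Gy went from 4300 to 1235 jointly, 2546 with neqc, 1287 with 75th percentile scaling and 1237 jointly with the replicate block, and those at 0.5 Gy from 4313 to 1949, 2017 and 1951 jointly, with 75th percentile scaling and jointly with the block. With neqc they went from 786 to 1345 at 1.4 Gy, from 849 to 1588 at 11.2 Gy and from 644 to 1150 at 32.4 Gy. With 75th percentile scaling the log2 ratio of Hbb-b2 at 1.4 Gy turned from -0.08 to 0.052, that of Hba-a1 at 1.4 Gy from 0.12 to -0.027 and that of Alas2 at 32.4 Gy from 0.00 to -0.065, none of them called, and the median of all probes was -0.15 at 0.5 Gy.

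Without single arrays, the calls among members stayed at 5 at 0.05 and 0.5 Gy and at 0 at the other doses as deposited. Uncalled ratios near 0 then changed sign, with ranges of -0.17 to 0.0021 (Hbb-b2) and -0.12 to 0.046 (Hbb-b1) at 1.4 Gy and of -0.015 to 0.028 (Alas2) and -0.13 to 0.034 (Slc4a1) at 32.4 Gy. Jointly, an alternative chosen after seeing the data, Hbb-b1 was also called at 0.05 Gy without 0.05 Gy replicate 2, 0.05 Gy replicate 3 or 0 Gy replicate 1, which gave 4 members called. With the replicate number as a block, the deposited values still gave 5 members called at 0.05 Gy and 5 at 0.5 Gy. The numbers name arrays of a pool, and deviations of same-numbered arrays correlated by -0.06 to 0.32, over 0.1 throughout in 2 of 15 group pairs. The BeadChip as a block was not run, since the files name no chips. Signals of Hbb-b1 and Slc4a1 close to background limit their ratios.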
